A study of Mus musculus and Bos taurus with 6 samples.

Results

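SOX9 peaks without another peak within 500 kb on either side made up a small part of the binding maps of the fetal testis. On the numbered chromosomes 344 of 6402 peaks were of this kind in mouse and 255 of 11796 in cattle; with the X, whose peaks were not judged, the lists hold 6419 and 11988 peaks. They were chosen by spacing alone. Each list was sorted along the numbered chromosomes, the first and last peak of each chromosome were set aside, and a peak was kept when the gap from its edge to the previous peak and the gap to the next one each exceeded 500000 bp. The chosen peaks are called isolated below. All other peaks of the numbered chromosomes, 6058 in mouse and 11541 in cattle, are called the other peaks.

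The lists come from chromatin immunoprecipitation with a rabbit SOX9 antibody in whole fetal testes, from Swiss OF1 mice at stage E13.5 and from Holstein cattle fetuses at day 90. The labels give 2 SOX9 libraries and 1 input library for either species, and a single deposited list stands for all 3. The tissue was cross-linked with disuccinimidyl glutarate before formaldehyde, which also holds proteins that reach DNA through a partner. The lists give the chromosome, start and end of each peak, so the spread between replicates, the number of reads and the height of a peak are unknown, and the intervals below cover counting over peaks only.

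SOX9 is an HMG-box transcription factor that drives the supporting cells of the XY gonad to become Sertoli cells, the cells that organise the testis cords. It binds short A/T-rich motifs, bends DNA there and often acts at enhancers far from the promoters they serve. Long stretches with few genes, called gene deserts, are known to hold such distant enhancers, and Sox9 itself is controlled from the long gene-poor stretch upstream of it. Whether the stretches described here are gene deserts was not analysed, because no gene annotation of the builds mm9 (mouse) and UMD3.1 (cattle) was used here. For the same reason the peaks are named by position, counted from 1, and no gene or sequence is given.

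In the mouse list 5.37% of the 6402 peaks on 18 numbered chromosomes were isolated (exact 95% binomial interval 4.83 to 5.95%). In cattle the share was 2.16% of 11796 peaks on 29 chromosomes (1.91 to 2.44%). The bovine list held more peaks on a similar summed span, 2485 Mb against 2298 Mb when each chromosome is measured between its outermost peaks. The median gap between neighbouring peaks was 64.6 kb in cattle against 129.7 kb in mouse. The share of isolated peaks follows from that spacing, which the choice used, and was not tested.

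By the choice, every isolated peak had a gap over 500 kb on both sides, and together these peaks bordered part of the territory without SOX9 peaks. Gaps over 500 kb numbered 1149 in mouse and 1206 in cattle, and all of them together spanned 1597 Mb in mouse and 1478 Mb in cattle. In mouse 580 of these long gaps (50.5%) touched an isolated peak, and in cattle 447 did (37.1%). Together the long gaps beside isolated peaks spanned 860.7 Mb in mouse, which was 37.5% of the summed span, and 581.8 Mb or 23.4% in cattle. The remaining long gaps, 569 in mouse and 759 in cattle, had no isolated peak at either edge.

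Around a typical isolated peak the stretch with no other peak measured 2.32 Mb in mouse (quartiles 1.71 and 3.69 Mb) and 2.23 Mb in cattle (1.66 and 3.11 Mb). The smaller of the 2 gaps had a median of 737.9 kb in mouse and 732.1 kb in cattle. The larger gap had a median of 1512 kb in mouse and 1454 kb in cattle. The ratio of the larger to the smaller gap had a median of 1.71 in mouse and 1.655 in cattle. This ratio was over 2 at 127 mouse peaks (36.9%) and 95 bovine peaks (37.3%). Both gaps exceeded 1 Mb at 105 mouse peaks (30.5%) and 73 bovine peaks (28.6%). Both exceeded 2 Mb at 19 and 11 peaks, and 3 Mb at 2 and 3.

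**Figure D1:**
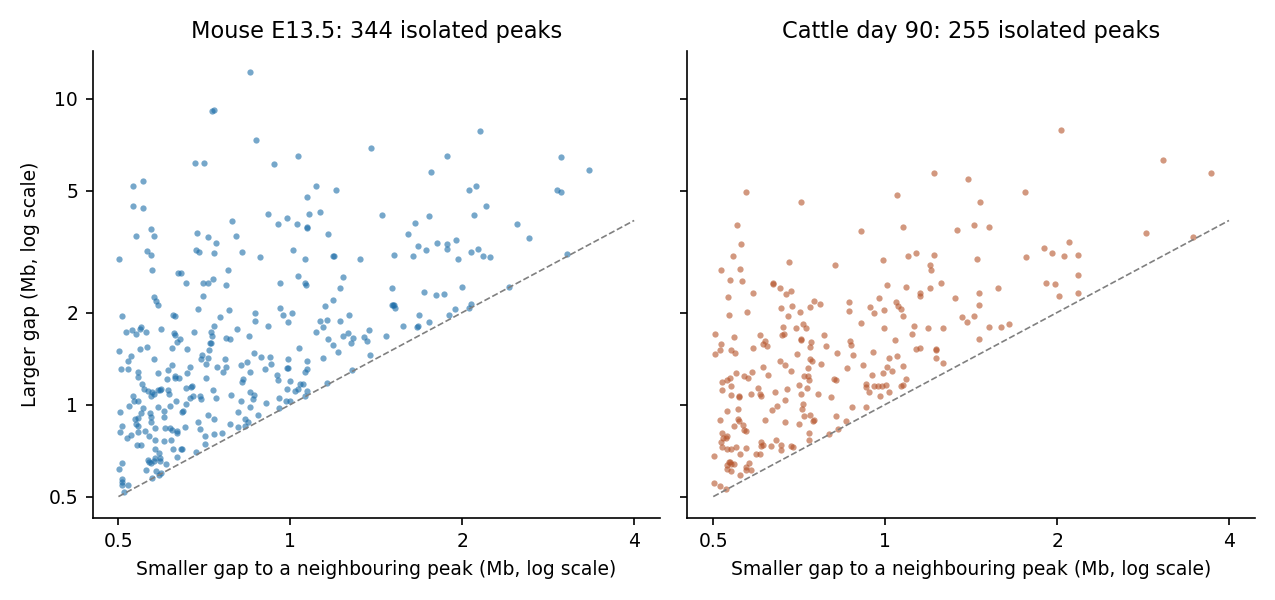
Each point is 1 isolated SOX9 peak, with the smaller gap to a neighbouring peak on the horizontal axis and the larger gap on the vertical axis (Mb, log scales), for mouse and cattle; the dashed line marks equal gaps. Points crowd near the 0.5 Mb limit of the smaller gap and thin out towards its highest values of 3.33 Mb in mouse and 3.72 Mb in cattle.

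The most isolated mouse peak, ranked by its smaller gap, lay on chromosome 3 from 75759950 to 75760977 (mm9). It was 1028 bp wide, with 5851 kb free of peaks before it and 3329 kb after it. The next was a peak of 1106 bp on chromosome 5 (12382986 to 12384091), with gaps of 3116 and 3056 kb. Its gaps were close to equal, so it stood near the middle of a stretch of 6.17 Mb. Ranks 3 and 4 were neighbours on chromosome 14, at 84842263 to 84843193 (931 bp) and at 87815758 to 87816925 (1168 bp), and shared the gap of 2973 kb between them. Rank 5, on chromosome 17 from 72662952 to 72664544, was 1593 bp wide and had gaps of 5042 and 2928 kb. Of these 5 peaks, the one on chromosome 17 was wider than 92.3% of the mouse list and the other four were of ordinary width, wider than 47.3 to 71.6% of it.

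The most isolated bovine peak lay on chromosome 6 from 51536042 to 51537406 (UMD3.1), was 1365 bp wide and had gaps of 3716 and 5729 kb. A peak of 1019 bp on chromosome 12 (59144180 to 59145198) followed, with nearly equal gaps of 3455 and 3520 kb. A peak of 1117 bp on chromosome 11 (56704935 to 56706051) had gaps of 6304 and 3061 kb. These 3 were the only bovine peaks with more than 3 Mb on both sides. Ranks 4 and 5 were on chromosome 15 (71432767 to 71433952, 1186 bp, smaller gap 2867 kb) and on chromosome 3 (62840673 to 62842116, 1444 bp, smaller gap 2180 kb). None of the 5 stood out by width, each being wider than 30.4 to 70.2% of the bovine list.

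The limit of 500 kb separated peaks that differed little in spacing. The mouse peaks just inside it lay on chromosome 2 (49306424 to 49307677, smaller gap 500266 bp) and chromosome 3 (60304617 to 60305808, 500405 bp). Those just outside were a pair on chromosome 15 (65618569 to 65619210 and 66117880 to 66118450) that shared a gap of 498669 bp. In cattle the peaks just inside were on chromosome 3 (98871622 to 98873155, 500496 bp) and chromosome 26 (34423924 to 34425345, 501144 bp). Just outside were peaks on chromosome 14 (35728225 to 35729664, 499069 bp) and chromosome 24 (54653549 to 54654541, 498638 bp). The widths at the limit were 1254 and 1192 bp inside and 642 and 571 bp outside in mouse, and 1534 and 1422 bp inside and 1440 and 993 bp outside in cattle.

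Isolated peaks often came in rows, meaning that the next peak along the chromosome was isolated as well. Of the 344 mouse members, 178 (51.7%) belonged to 70 such rows of at least 2 peaks, and 90 belonged to 26 rows of at least 3. Of the 255 bovine members, 105 (41.2%) formed 42 rows, and 45 of them lay in 12 rows of at least 3. Peaks of a row share a gap, so their isolation was not independent. Over the whole lists 18.0% of gaps in mouse and 10.2% in cattle exceeded 500 kb. How many rows such spacing would give was not tested.

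The longest row held 7 mouse peaks on chromosome 15 between 43001402 and 53177563, inside a stretch of 13.2 Mb bounded by non-isolated peaks. The peaks were 843, 801, 1417, 1147, 510, 510 and 1032 bp wide along the chromosome. The gaps between them ran from 632.0 to 4170 kb. Only 3 of the 7 peaks (1417, 1147 and 1032 bp) were wider than 953.5 bp, the median of the mouse list. Mouse rows of 5 peaks lay on chromosomes 3, 5 and 13. In the row on chromosome 5 (12382986 to 18734309), which begins with the second most isolated peak, the widths were 1106, 1517, 1814, 1510 and 2305 bp. All 5 exceeded the list's median.

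In cattle the longest row held 5 peaks on chromosome 1 between 26087324 and 32395186, with widths of 1110, 1635, 1785, 1331 and 1514 bp. A row of 4 on chromosome 2 (54101746 to 60881923) was narrower, at 1091, 1091, 1025 and 966 bp, all below the median of 1224 bp of the bovine list. A row of 4 on chromosome 6 (9454385 to 13475874) was wide, at 1409, 1859, 1924 and 1833 bp. Widths thus ran from narrow to wide between rows. These rows were chosen after their values were seen. Over all members, those in rows and those alone had similar widths: in mouse 1046 bp (95% interval of the median 997 to 1136 bp) against 1042 bp (990 to 1147 bp), and in cattle 1373 bp (1251 to 1514 bp) against 1352 bp (1283 to 1429 bp).

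Isolated peaks were unevenly shared among the chromosomes. In mouse, chromosome 1 held the most, 33 of its 398 peaks, and chromosome 3 had the largest share of its own peaks isolated, 32 of 357 or 8.96% (exact 95% binomial interval 6.21 to 12.4%). Chromosome 18 followed with 17 of 204 (8.33%, 4.93 to 13.0%). At the other end, chromosome 11 had 15 of 552 (2.72%, 1.53 to 4.44%). Chromosome 19 had a single isolated peak among 238 (0.420%, 0.0106 to 2.32%), at 28084664 to 28085923 with a width of 1260 bp. The interval of chromosome 19 overlapped only those of chromosomes 7 and 11. That of chromosome 11 also missed those of chromosomes 1, 3, 6 and 18. Most mouse chromosomes lay between 4 and 8% with wide, overlapping intervals. Spacing chose the members and peaks of a row share gaps, so these intervals are a description and no test was made.

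The share also varied among the bovine chromosomes. Chromosome 1 again held the most members, 22 of 511 peaks, and chromosome 6 had the largest share, 16 of 309 or 5.18% (2.99 to 8.27%), next to chromosome 4 with 20 of 396 (5.05%, 3.11 to 7.69%). Chromosome 18 had 1 isolated peak among 622 (0.161%, 0.00407 to 0.892%) and chromosome 19 had 1 among 731 (0.137%, 0.00346 to 0.760%). Chromosome 25 had 2 among 437 (0.458%, 0.0555 to 1.64%). The isolated peak of chromosome 18, at 23306436 to 23309425, measured 2990 bp and ranked 21 by width in the whole bovine list.

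These shares were lower on densely filled chromosomes, where the rule itself leaves fewer peaks to be isolated. Across chromosomes Spearman's rho between peaks per Mb and the isolated share was -0.75 over 18 mouse chromosomes and -0.91 over 29 bovine ones. Both quantities come from the same spacing of the same peaks, so the correlation is a description. Per 10 Mb of span, isolated peaks ranged from 0.172 on chromosome 19 to 2.10 on chromosome 3 in mouse, and from 0.154 on chromosome 18 to 1.73 on chromosome 4 in cattle. On 9 of 18 mouse and 17 of 29 bovine chromosomes the share of all members was larger than the share of all peaks. Chromosome 6 of cattle, for example, held 6.27% of members, 2.62% of peaks and 4.76% of the span, while chromosome 19 held 0.392% of members, 6.20% of peaks and 2.38% of the span.

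**Figure D2:**
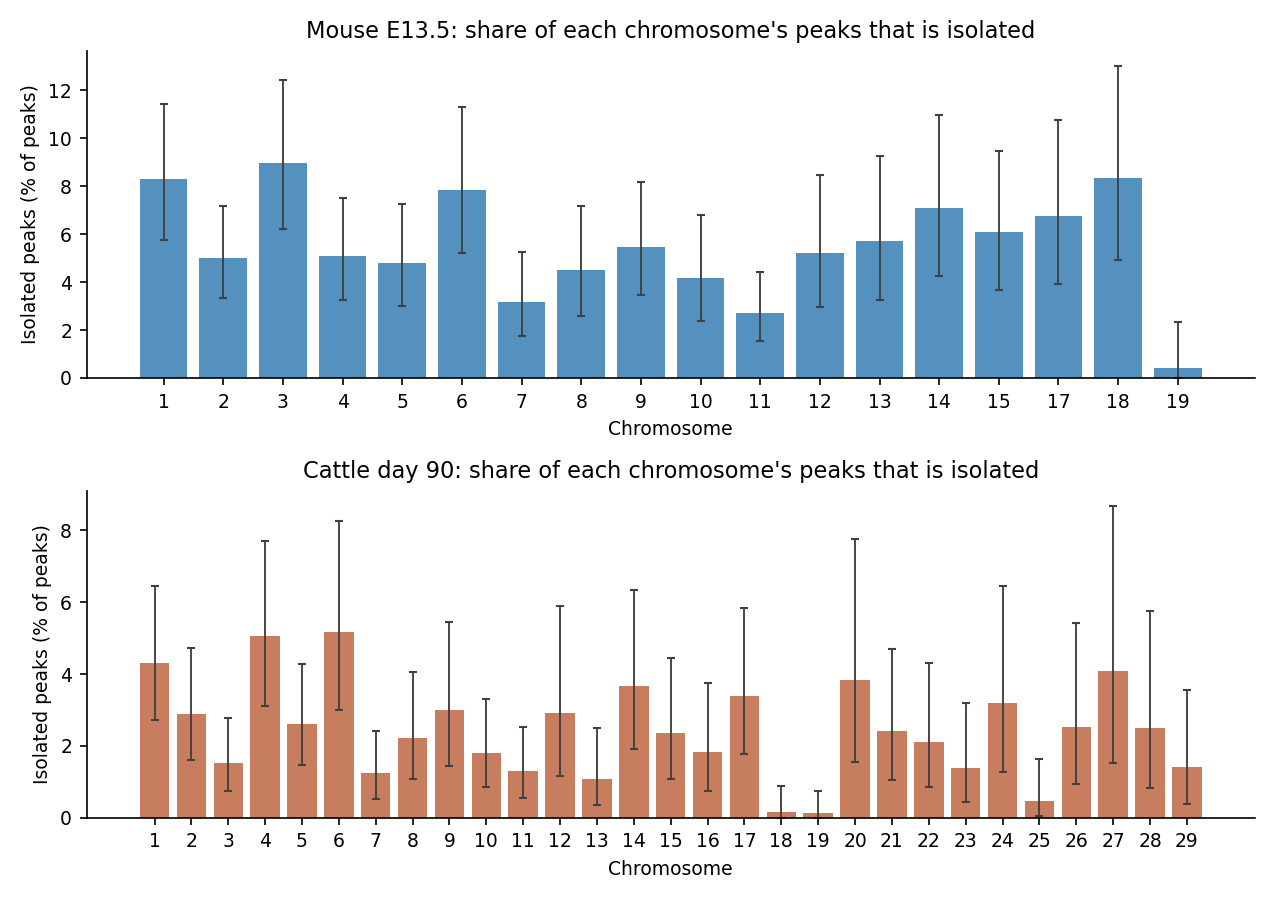
Bars give the percentage of each numbered chromosome's SOX9 peaks that were isolated, mouse above and cattle below, and lines the exact 95% binomial interval. Mouse chromosome 19 (0.420%) and bovine chromosomes 18 (0.161%), 19 (0.137%) and 25 (0.458%) are nearly empty of isolated peaks.

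The share of isolated peaks that lay at the end of the chromosomes with the highest coordinates was below that of the other peaks. Mouse chromosomes and cattle autosomes have their centromere near one end, and in mouse this is the end where coordinates begin. Each chromosome was divided, between its outermost peaks, into 5 equal parts. The last part held 16.3% of isolated peaks in mouse (56 of 344, 12.5 to 20.6%) against 26.4% of the other peaks (25.3 to 27.6%). In cattle it held 12.2% (31 of 255, 8.41 to 16.8%) against 26.9% (26.1 to 27.7%). The second part held more isolated than other peaks in both lists: 23.8% (19.4 to 28.7%) against 15.9% (15.0 to 16.8%) in mouse, and 23.5% (18.5 to 29.2%) against 17.8% (17.1 to 18.5%) in cattle. In mouse the members did not decline steadily along the chromosome: parts 1, 3 and 4 held 22.4, 16.9 and 20.6% of them, so the middle part was about as low as the last. In cattle parts 1, 3 and 4 held 22.4, 23.1 and 18.8%. The other peaks were themselves most frequent in the last part. Position and isolation therefore both reflect the spacing of the list, and no test was made.

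**Figure D3:**
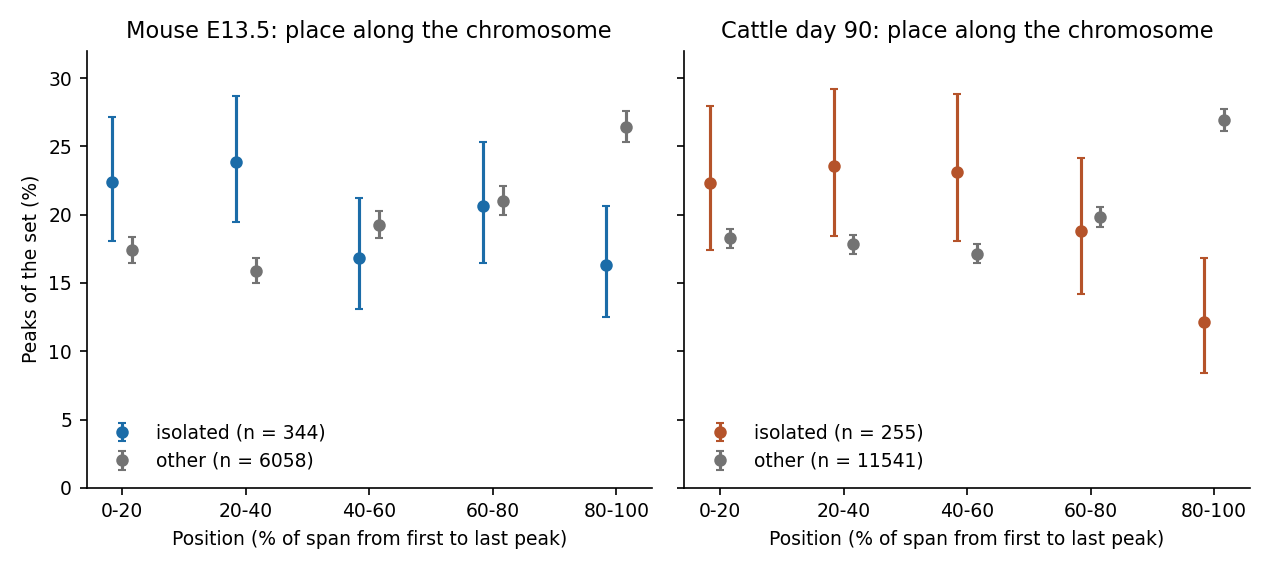
Points give the percentage of isolated (coloured) and other (grey) peaks in each of 5 equal parts of a chromosome, measured between its outermost peaks, all numbered chromosomes together, with exact 95% binomial intervals. In the last part isolated peaks fall to 16.3% in mouse and 12.2% in cattle, while the other peaks reach 26.4 and 26.9%.

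Width was not used to choose the members. The rise of width with distance between peaks was already known from these data, however, so the comparison of widths is not independent support. Isolated peaks were somewhat wider than the other peaks in both species. In mouse their median width was 1044.5 bp (exact 95% interval of the median 1013 to 1106 bp) against 948 bp (937 to 958 bp), a difference of 96.5 bp (interval 48 to 174 bp) or 1.10 times. In cattle the medians were 1367 bp (1292 to 1429 bp) and 1221 bp (1213 to 1230 bp), a difference of 146 bp (55 to 232 bp) or 1.12 times. Each interval of a difference was formed from the 97.5% intervals of both medians and so has a confidence of at least 95%, if the peaks of a list were independent, which neighbouring peaks are not. The lists have no replicates, and no p-value was formed for widths. Among the widest 50% of each list alone, isolation was judged anew, and 527 mouse and 453 bovine peaks were isolated, not the same set of members. Over this restricted range of widths the difference was 49 bp in mouse (-13 to 102 bp) and 51 bp in cattle (-13 to 114 bp). With a limit of 1000000 bp the bovine difference was 170 bp (-5 to 301 bp). All of these intervals included 0.

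The sets overlapped widely. Over all pairs of an isolated and another peak of a list, with ties shared equally, the isolated peak was the wider in 58.1% of pairs in mouse and 59.6% in cattle. Isolated widths ran from 362 to 3172 bp in mouse, with a mean of 1139 bp and an SD of 468 bp across peaks, and from 241 to 3864 bp in cattle, with a mean of 1400 bp and an SD of 475 bp. The difference was not the same along the distribution. In mouse the 10th percentile of isolated peaks was lower than that of the other peaks (580.1 against 603 bp), while the 75th was higher by 168 bp (1371 against 1203 bp) and the 90th by 254 bp (1758 against 1504 bp). In cattle isolated peaks were wider by 67.2 bp at the 10th percentile, 195 bp at the 75th and 128 bp at the 90th.

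**Figure D4:**
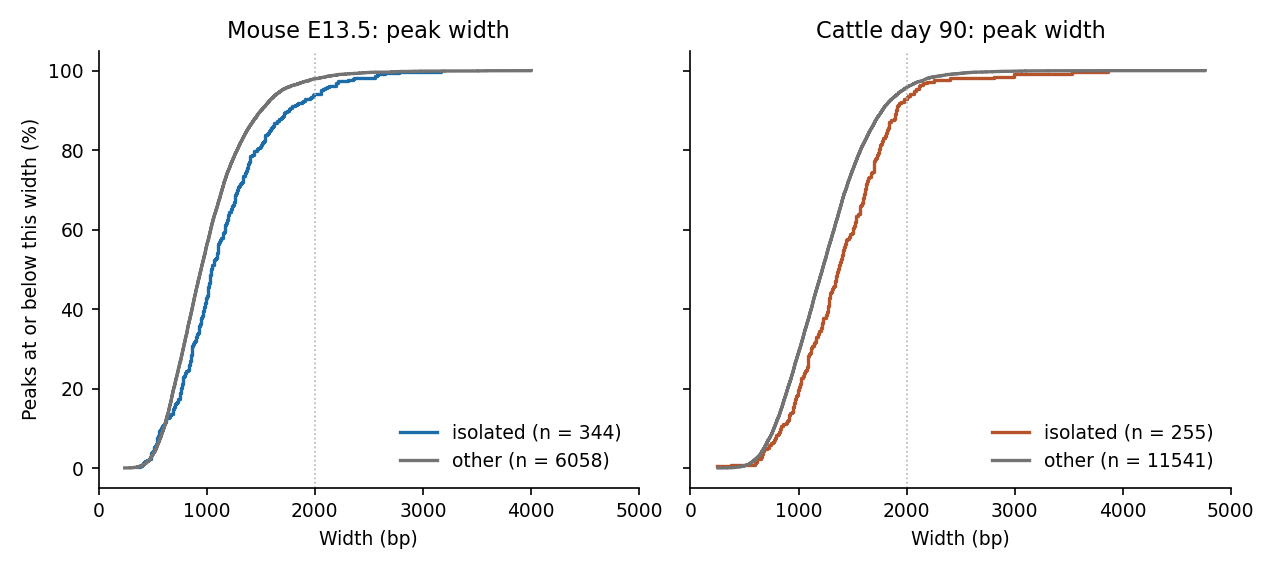
Lines give the cumulative percentage of peaks at or below each width (bp) for isolated peaks (coloured) and other peaks (grey) of the numbered chromosomes; the dotted line marks 2000 bp. The isolated curve lies to the right over most of the range, with medians of 1044.5 against 948 bp in mouse and 1367 against 1221 bp in cattle, and the mouse curves meet at the narrow end.

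Very wide peaks were frequent among the mouse members. Over 2000 bp lay 20 of the 344 isolated mouse peaks, or 5.81% (exact 95% binomial interval 3.59 to 8.84%), beside 2.22% of the whole list and 2.01% of the other peaks (1.68 to 2.40%). In cattle 18 of 255 isolated peaks were over 2000 bp, or 7.06% (4.24 to 10.9%), beside 4.34% of the list and 4.28% of the other peaks (3.92 to 4.67%). The bovine intervals overlapped. When peaks less than 500 bp apart were merged first, the share was 15.9% of 290 isolated regions (11.9 to 20.6%) against 8.03% of the others (7.53 to 8.56%) in cattle, and 8.79% of 364 (6.09 to 12.2%) against 3.11% (2.68 to 3.58%) in mouse. The bovine intervals then no longer overlapped, but the isolated set had changed. Merging leaves the gaps of an unmerged peak as they were, so the regions it added were merged peaks, which are wider by construction. With them, isolated regions over 2000 bp rose from 18 to 46 in cattle and from 20 to 32 in mouse. The lost overlap therefore cannot show whether unmerged isolated peaks in cattle were more often very wide. The 20 wide mouse members were spread over 12 chromosomes, with 4 on chromosome 3. The 18 bovine ones were spread over 16 chromosomes, with at most 2 on any of them.

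A cut set within each list gave a similar picture in both species. The widest 10% of the mouse list (over 1519.8 bp, 10% of all peaks) took in 62 isolated peaks, or 18.0% of them (14.1 to 22.5%), against 9.56% of the other peaks (8.83 to 10.3%). In cattle the widest 10% (over 1780 bp, 9.99% of all peaks) took in 44, or 17.3% (12.8 to 22.5%), against 9.83% (9.29 to 10.4%). Narrow peaks were not scarce among the mouse members. Under 600 bp lay 37 isolated mouse peaks (10.8%, 7.69 to 14.5%), beside 9.78% of the list, and 3 bovine ones (1.18%, 0.243 to 3.40%), beside 2.14% of the list.

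The widest isolated mouse peak lay on chromosome 2 from 127950933 to 127954104, measured 3172 bp and ranked 8 in the mouse list. Its gaps were modest, at 642 and 570 kb. Next came chromosome 3 from 45180153 to 45182927 (2775 bp, gaps 3810 and 1068 kb) and chromosome 9 from 68500937 to 68503587 (2651 bp, gaps 821 and 633 kb). Ranks 4 and 5 were on chromosome 3 from 136332266 to 136334850 (2585 bp, smaller gap 842 kb) and on chromosome 14 from 100683533 to 100686104 (2572 bp, smaller gap 985 kb). Only the peak at 45180153 had more than 1 Mb free on both sides.

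In cattle the widest member, on chromosome 13 from 3873873 to 3877736, measured 3864 bp and ranked 3 in its list. Its smaller gap of 504 kb put it close to the limit. The second, on chromosome 21 from 37272324 to 37275851, measured 3528 bp, ranked 5 and stood far from other peaks, with gaps of 1577 and 2397 kb. It was part of a row of 4 isolated peaks. The third lay on chromosome 7 (86636863 to 86639858, 2996 bp, smaller gap 710 kb), also in a row of 4. Rank 4 was the lone isolated peak of chromosome 18, and rank 5 lay on chromosome 14 (26939979 to 26942784, 2806 bp, smaller gap 526 kb).

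The narrowest members were far below the median. In mouse they measured 362, 383 and 398 bp and lay at 117245674 to 117246035 of chromosome 8, 97307352 to 97307734 of chromosome 2 and 25000005 to 25000402 of chromosome 11. The one on chromosome 2 was also strongly isolated, with gaps of 3060 and 1195 kb. In cattle a peak of 241 bp on chromosome 2 (66269167 to 66269407) was the narrowest of the numbered chromosomes, isolated or not, and had 3852 kb free of peaks after it. Next came 371 bp at 58738147 to 58738517 of chromosome 5, and then 599 bp at 31194829 to 31195427 of chromosome 17.

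Median width was already higher at spacings well below the limit of 500 kb. Among peaks whose nearer neighbour was less than 500 bp away the median width was 781 bp in mouse and 1005.5 bp in cattle. It was 1007 bp (983 to 1033 bp) in mouse and 1320 bp (1292 to 1339 bp) in cattle where the smaller gap was 100 to 250 kb. It was 1014.5 bp (964 to 1052 bp) and 1337 bp (1281 to 1383 bp) at 250 to 500 kb. Set against this last class, isolated peaks were wider by 30 bp in both species, with intervals from -47 to 149 bp in mouse and from -104 to 169 bp in cattle. Against other peaks with no neighbour within 10 kb, the difference was 79.5 bp (28 to 157 bp) in mouse and 94.5 bp (1 to 181 bp) in cattle.

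Among the members themselves width hardly varied with the degree of isolation. Spearman's rho between width and the smaller gap was 0.02 over 344 mouse peaks and -0.02 over 255 bovine peaks, given as a description across peaks of 1 list. The median was 1041 bp in mouse and 1355 bp in cattle at a smaller gap of 500 to 1000 kb, and 1055.5 and 1397 bp at 1000 to 2000 kb. Beyond 2000 kb it was 1168 bp over 19 mouse peaks (931 to 1537 bp) and 1229 bp over 11 bovine peaks (842 to 1785 bp), too few to place either above or below the nearer classes. The share of mouse peaks over 2000 bp was between 1.41 and 2.59% in the 5 classes up to 250 kb, 3.30% at 250 to 500 kb, 4.60% at 500 to 1000 kb, 8.14% (7 of 86) at 1000 to 2000 kb and 10.5% (2 of 19) beyond. In cattle it rose from 1.98% in the class under 500 bp through 3.62, 3.87 and 5.19% to 6.55% at 100 to 250 kb. It was 6.23% at 250 to 500 kb and 7.14% at 500 to 1000 kb. At 1000 to 2000 kb it was 8.06% (5 of 62), with 0 of 11 peaks beyond. No intervals were formed for these shares, and those beyond 1000 kb rest on few peaks in both species.

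**Figure D5:**
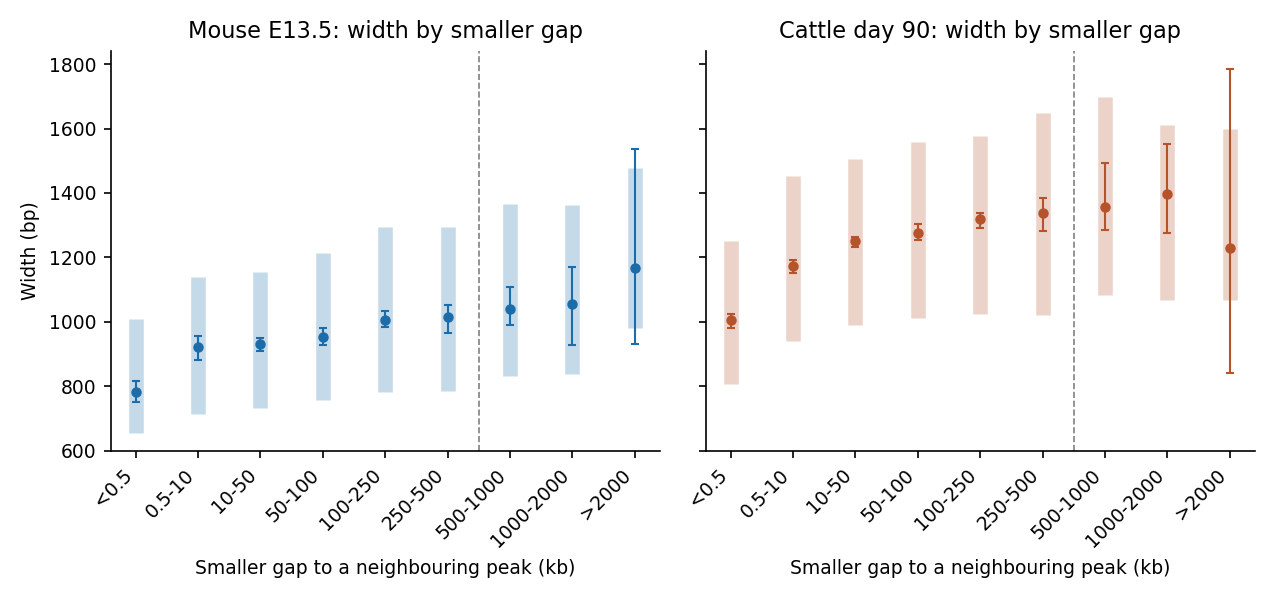
Points give the median width (bp) of the peaks in each class of smaller gap (kb), lines its exact 95% interval and pale bars the quartiles; classes to the right of the dashed line hold the isolated peaks. Medians climb from 781 bp (mouse) and 1005.5 bp (cattle) in the closest class to 1014.5 and 1337 bp at 250 to 500 kb, and the isolated classes lie near that level with wide intervals.

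The direction was the same on most chromosomes. Of the 17 mouse chromosomes with at least 5 isolated peaks, these had the higher median width on 14 and the lower on 3 (chromosomes 7, 8 and 12). Chromosome 3 had the largest difference, 262.5 bp (1251.5 against 989 bp), and chromosome 8 the lowest, -119 bp (817 against 936 bp). Of 25 such bovine chromosomes the members had the higher median on 20 and the lower on 5 (chromosomes 2, 4, 12, 13 and 24). There the differences ran from -175 bp on chromosome 2 to 443 bp on chromosome 14. With 5 to 33 members on these chromosomes, single values are imprecise, and chromosomes are not replicates.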

How the data were processed

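SOX9 occupancy was measured by ChIP-seq in fetal testis of mouse and cattle, with 2 SOX9 libraries and 1 input library per species. A single peak list for either species was deposited by the authors, and the labels assign it to all libraries of that species. Its lines give chromosome, start, end and a width in base pairs that equals end minus start throughout. The builds mm9 and UMD3.1 are named in the submitters' processing notes. No aligner, peak caller, threshold or pooling of replicates is named in the sources used here. Peak height and depth are unknown.

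Peaks were sorted by chromosome and start. Gaps were counted edge to edge. The first and last peaks of the numbered chromosomes (36 in mouse, 58 in cattle) could not be isolated and were counted among the other peaks, and the X was left out. Mouse chromosome 16 was not analysed here. Medians have exact order-statistic intervals and shares have exact Clopper-Pearson intervals, both at 95%. The members and comparisons were chosen with earlier results of these data known, including the rise of width with distance between peaks, so that pattern is not independent support. Peaks named were the 5 most isolated, 5 widest and 3 narrowest members per species and the 2 nearest the limit on each side. Planned descriptions of nearby genes and of motifs were not run, for want of annotation and sequence of these builds here. The rule and the intervals were tested on 20 simulated lists with planted members. Widths of the planted members and of part of the other peaks were drawn independently there. The remaining other peaks had fixed widths, so the interval of a difference was tried on a simpler comparison set than the real one. Gaps lay away from the limit, and dependence between neighbouring peaks was not covered. Python 3.11.15, pandas 2.3.3 and SciPy 1.17.1 were used.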

Additional observations from a re-analysis of the deposited data

Results flagged for a closer look

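The X chromosome was outside the choice of members, yet peaks there also met the spacing limit. In mouse 11 of 17 X peaks had both gaps over 500 kb, and their median of 616 bp was below the 1025.5 bp of the remaining X peaks, the opposite order to the numbered chromosomes. The widest of these 11 measured 918 bp. In cattle 36 of 192 X peaks met the limit, with a median of 1187 bp against 1129.5 bp. No interval was formed for the few mouse X peaks, and the difference between X and numbered chromosomes was not tested.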

How the results depend on the processing

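Of 48 alternative values, all planned, 40 stayed within 1.5 times (counts) or within the 95% interval (widths and shares) and 8 moved. Only the width differences, 10 per species, could change direction, and none did. Counts and shares have no direction. The number of isolated peaks depended on the limit by construction, with 890 in mouse and 769 in cattle at 250000 bp and 105 and 73 at 1000000 bp. Among the widest 50% of peaks, a thinner list, 527 and 453 were isolated and the difference in median width was 49 bp in mouse and 51 bp in cattle. Over all alternatives the difference ran from 49 to 145 bp in mouse and from 51 to 170 bp in cattle. Merging peaks under 500 bp apart raised the share over 2000 bp to 8.79% in mouse and 15.9% in cattle among isolated regions, and to 3.11 and 8.03% among the others, since merged peaks are wider. No paired analysis was possible because the libraries of a species share a single list, and replicates could not be left out in turn either. Depth is unknown, so a gap may hold regions that were bound but not called.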

Other observations

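The non-isolated peaks that stood next to an isolated one, across its long gap, were also wider than the rest. In mouse 472 such peaks had a median width of 1023.5 bp (983 to 1058 bp) against 941 bp for the 5586 remaining other peaks, a difference of 82.5 bp (16 to 133 bp). In cattle 384 such peaks had a median of 1303.5 bp (1233 to 1362 bp) against 1219 bp, a difference of 84.5 bp whose interval ran from -2 to 166 bp. Counted by the number of long gaps beside a peak, the mouse medians were 934 bp with 0, 980 bp with 1 and 1044.5 bp with 2, and the bovine medians 1213, 1265.5 and 1367 bp.

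The isolated mouse peak with the longest free stretch around it, 13.1 Mb, was on chromosome 15 from 13102596 to 13103638, with gaps of 851 kb before and 12238 kb after. The bovine counterpart, with 9.93 Mb, was on chromosome 12 from 44823043 to 44824271, with gaps of 7900 and 2031 kb. They were 1043 and 1229 bp wide, and both were chosen after their values were seen. First and last peaks of a chromosome that had an inner gap over 500 kb numbered 5 in mouse and 10 in cattle.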
